A study of Monodelphis domestica with 18 samples.

Results

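The genes described here encode the subunits of the mitochondrial respiratory chain and of ATP synthase, together with the complex I assembly factors whose symbols begin with NDUFAF. They were chosen by symbol alone: NDUFA, NDUFB, NDUFC, NDUFS and NDUFV for complex I, SDHA to SDHD for complex II, UQCR for complex III, COX4 to COX8 for complex IV and ATP5 for complex V. Of 23899 genes with deposited counts, 98 carried such a symbol, and 85 of them had more than 1 CPM (counts of a gene scaled to a fixed library size) in at least 6 of the 18 libraries and were tested among 12840 genes in all. The 85 were 36 rows of complex I, 7 NDUFAF assembly factors and 4 rows of complex II. A further 7 belonged to complex III, 10 to complex IV and 21 to complex V. Together they carried 79 symbols, with 34 in complex I and 3 in complex II. The 4 rows of complex II were SDHA, SDHC and 2 SDHB rows, and no row was named SDHD. The symbol decided the complex, also for NDUFA4, which is counted in complex I although later work places its protein elsewhere.

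RNA came from OK cells, a proximal tubule epithelial line derived from the kidney of the opossum, grown on permeable filter supports. The cells were either kept in static culture and sampled at 0, 48 and 96 h (Static 0 h, Static 48 h and Static 96 h), or shaken on an orbital platform at 146 rpm, which exposes them to orbital shear stress (OSS), and sampled at 12, 48 and 96 h (OSS 12 h, OSS 48 h and OSS 96 h). The labels name no other agent or genetic change, each condition held 3 libraries, and each library was made from RNA pooled from 3 experiments. No static library was sampled at 12 h, so that OSS and 12 h of further culture cannot be told apart in the first step. Replicates with the same number deviated together, and replicate 1 libraries were the shallowest, with 40154553 to 53240329 counts against 58575822 to 79745362 in the others. Of 12 proximal tubule markers, 9 passed the filter on low levels, with LRP2 (megalin) between 2785 and 6899 CPM and CUBN (cubilin) between 1072 and 2485 CPM over the 18 libraries. ALPL, AQP1 and SLC5A1 did not pass, and AQP1 stayed at or under 0.242 CPM.

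The respiratory chain sits in the inner mitochondrial membrane. Complex I takes electrons from NADH and complex II from succinate, both pass them by way of ubiquinone to complex III, and cytochrome c carries them on to complex IV, which reduces oxygen to water. Complexes I, III and IV pump protons, and complex V lets the protons flow back and makes ATP, which the proximal tubule spends largely on sodium-driven reabsorption. Complex II is encoded wholly in the nucleus, whereas the other complexes mix nuclear and mitochondrial genes. The authors removed mitochondrial reads before counting, so the values concern the nuclear genes, and 12 of 14 rows with mitochondrial symbols held 0 counts in all 18 libraries.

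Levels below are CPM scaled by edgeR's TMM factors, and errors of means are SDs over 3 libraries. A gene is said to have risen or fallen, or to have passed, where edgeR's quasi-likelihood F-test gave an adjusted p under 0.05 over all 12840 genes. SE is the standard error of the log2 fold change. CPM are shares of each library, so a higher level in every cell and a larger part of cells with a high level cannot be told apart. Because same-numbered replicates moved together, a second fit took that number as a block. Its member counts follow those of the first fit, and its adjusted p stands beside each named member whose call it changed.

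Among the most abundant members was the catalytic head of ATP synthase. ATP5F1B (ENSMODG00000019853), the beta subunit that holds the catalytic sites, had 2262, 2416 and 2293 CPM in the 3 Static 0 h libraries and 4309.9, 4532 and 4606 CPM in OSS 48 h. ATP5F1A (ENSMODG00000003241), the alpha subunit beside it, had 2552, 2654 and 2588 CPM and 4678, 4858 and 4822 CPM in the same conditions. Per kb of deposited gene length, the mean over 18 libraries was highest for ATP5F1E, the epsilon subunit, at 2680 CPM per kb, followed by COX5B at 2077, ATP5PB at 1944 and ATP5F1B at 1804 CPM per kb. The median over genes was 555 CPM per kb for complex IV, 494 for complex III, 279 for complex II, 247 for complex V, 109 for complex I and 34.8 for the assembly factors. These orders are rough, since 52 of the 85 deposited lengths were multiples of 3, as coding length without untranslated ends would be, and others were not. Whether reads of some genes aligned less well than those of others was not tested either.

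At the lower end lay second copies of a symbol. ATP5PO had 3 tested rows and ATP5MC3, NDUFA9, NDUFS6 and SDHB had 2 each. Reads could be split between such rows where their sequences are alike, which was not tested, so their values are uncertain. NDUFA9 (ENSMODG00000018283) had 305 to 680.2 CPM over the 18 libraries, while its second row (ENSMODG00000016206) stayed at or under 2.82 CPM. The second NDUFS6 row was just inside the filter, with more than 1 CPM in 14 of 18 libraries, and the second NDUFA9 row in 16. The other 83 members exceeded 1 CPM in all 18 libraries, so that the filter depended on particular libraries for these 2 rows alone.

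The 13 rows that did not pass the filter included the tissue-restricted isoforms. COX4I2 (55 counts over 18 libraries, at most 0.122 CPM), the COX4 isoform of lung known to rise in hypoxia, and COX6A2 (53 counts, at most 0.131 CPM) and COX7A1 (2 counts), both isoforms of heart and skeletal muscle, were near 0. COX6B2, an isoform of testis, had 7 rows, of which 6 held 0 counts and the other at most 0.575 CPM, the value nearest to the filter from outside. ATP5MD and a second NDUFA1 row held 0 counts, and another NDUFS6 row 14 counts. Their ubiquitous counterparts COX4I1, COX6A1, COX6B1 and COX7A2 were tested in every library set, with at least 420.4, 81.3, 174 and 163 CPM in each library. Whether reads of the rows outside the filter aligned less well was not tested.

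Most members were lowest at the start and highest at 48 h of OSS. In static culture the summed level of the 85 genes averaged 18585 ± 728 CPM at the start, 26866 ± 1452 CPM after 48 h and 25373 ± 483 CPM after 96 h. Under OSS the sum averaged 24675 ± 3157 CPM after 12 h, 33782 ± 570 CPM after 48 h and 27199.7 ± 433 CPM after 96 h. Of the 85 members, 76 had their highest mean in OSS 48 h and 72 their lowest mean in Static 0 h. The 3 libraries of OSS 12 h were the most spread, with sums of 27744, 24843 and 21436 CPM in replicates 1, 2 and 3.

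**Figure D1:**
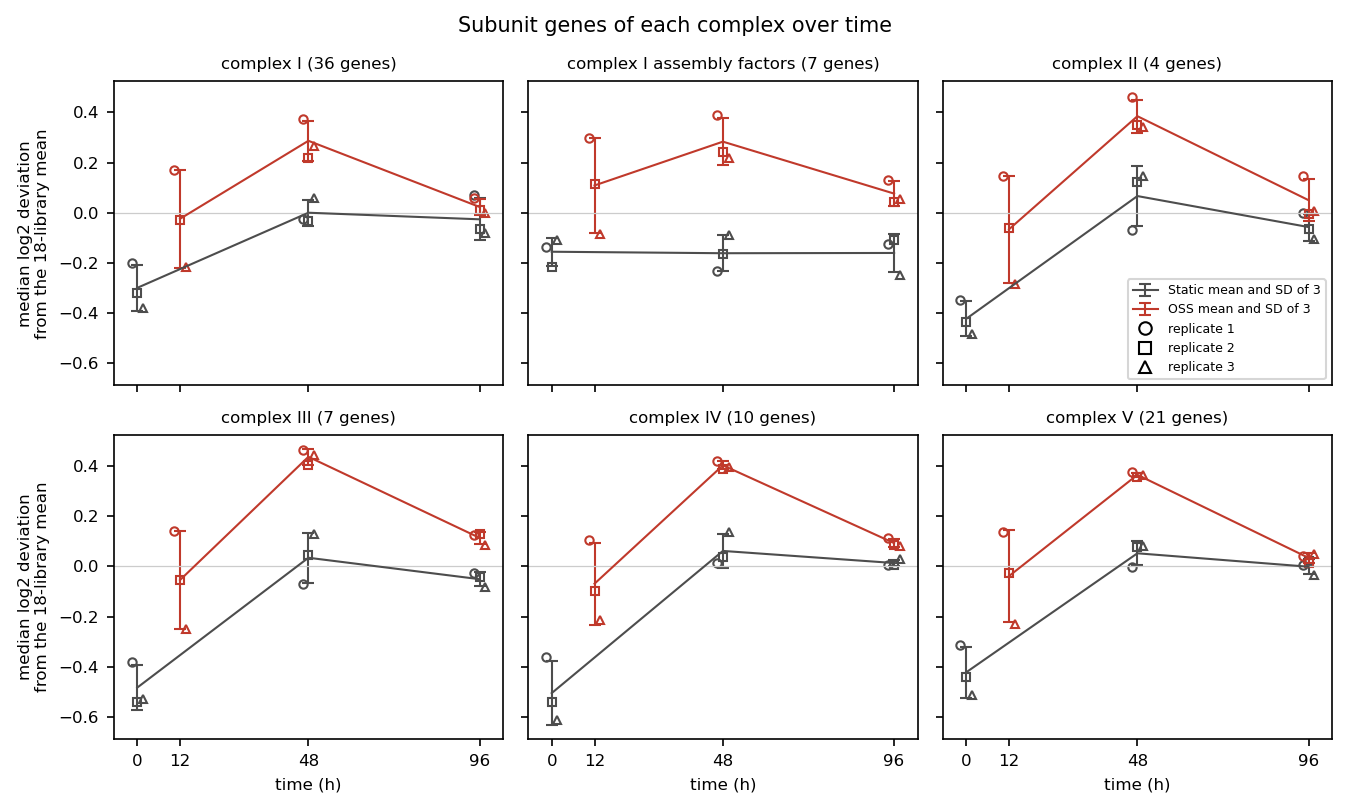
Median deviation of the genes of each complex from their own mean over 18 libraries, on the log2(CPM + 1) scale, against time in h. Points are libraries, lines join the condition means and bars are SDs of 3 libraries. In each panel OSS 48 h has the highest mean (0.44 for complex III, 0.29 for complex I), and the assembly factors lie near -0.16 in the 3 static conditions, where the 5 complexes climb from 0 to 48 h.

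The panels differ in their static course. The median deviation of the assembly factors was -0.16 at 0, 48 and 96 h of static culture, whereas that of complex IV went from -0.50 at 0 h to 0.06 at 48 h and that of complex III from -0.48 to 0.03. Under OSS the assembly factors stood at 0.11, 0.28 and 0.08 at 12, 48 and 96 h. These deviations are descriptions of medians over unequal numbers of genes and carry no test.

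**Figure D2:**
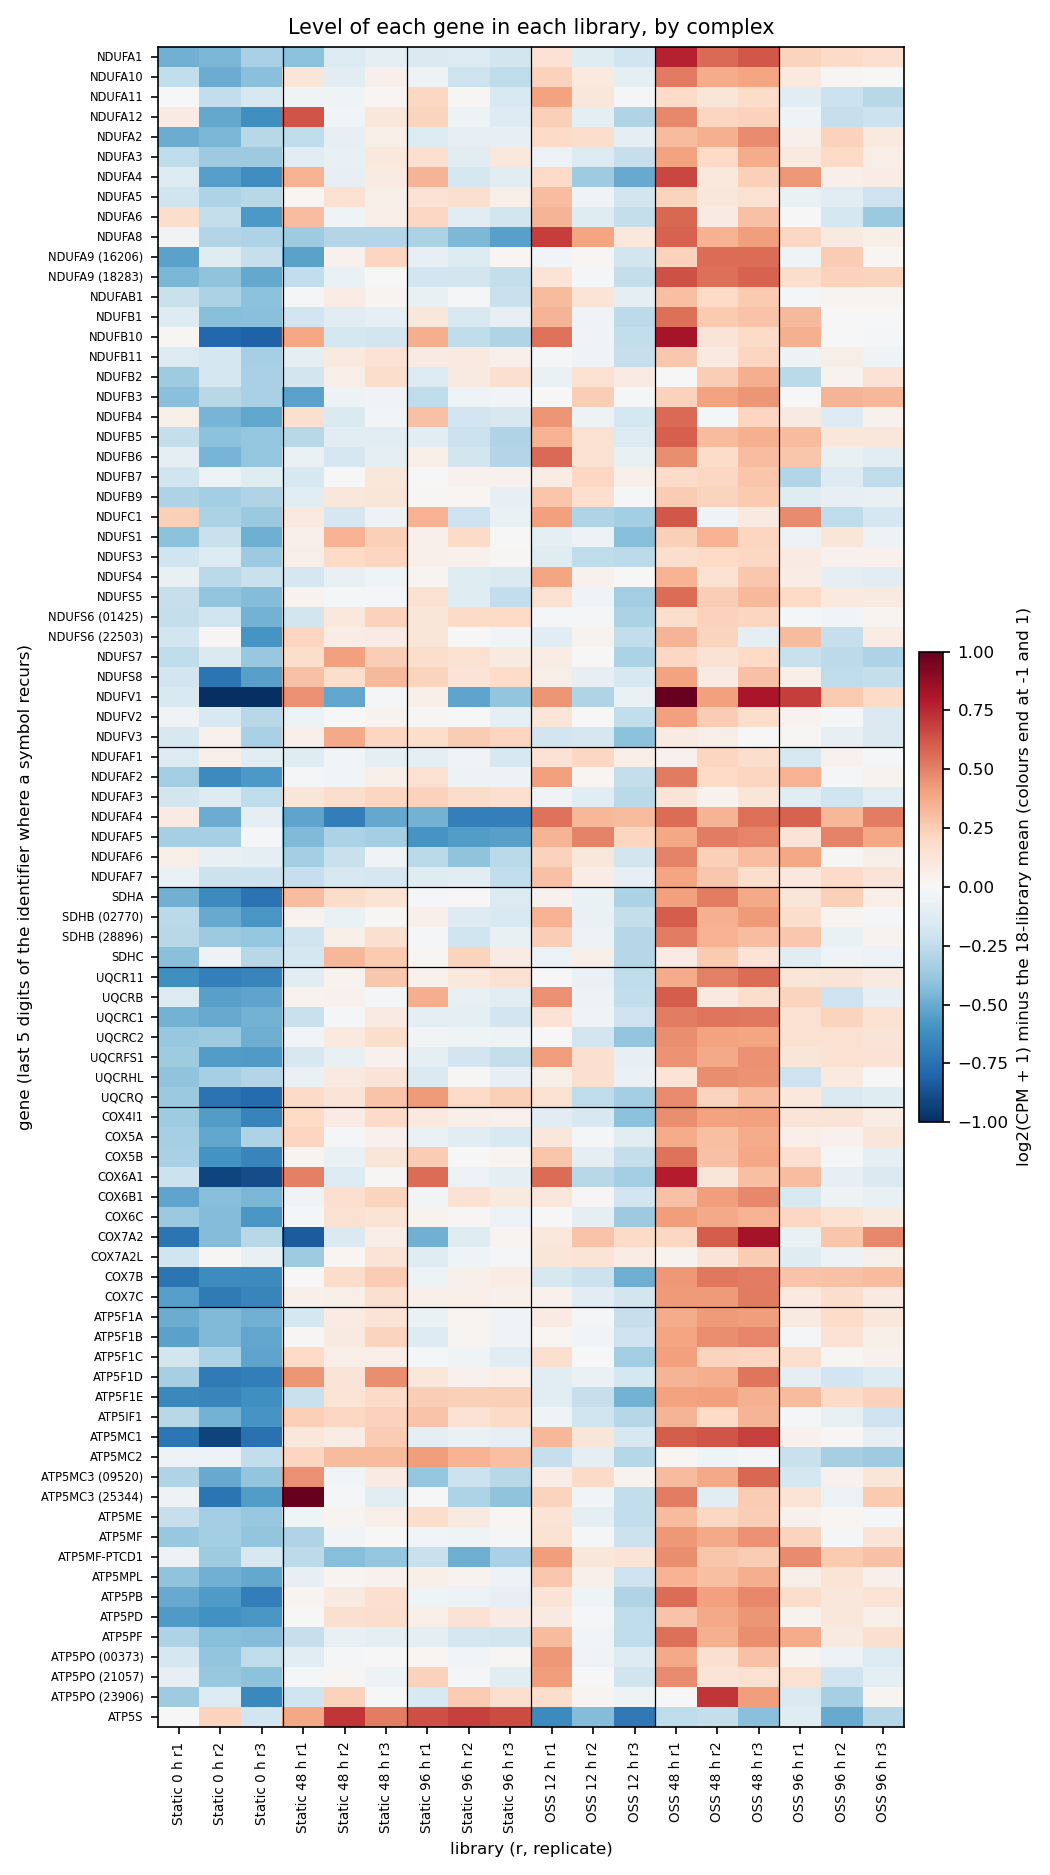
Deviation of each gene shown (rows, by complex) from its own mean over 18 libraries (columns, by condition and replicate), as log2(CPM + 1), with colours ending at -1 and 1. OSS 48 h is red for most rows and Static 0 h blue, while ATP5S is blue and NDUFAF4 red in every OSS library, and NDUFV1, COX6A1 and NDUFC1 are redder in replicate 1 of every condition.

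The first step compared cells after 12 h of OSS with static cells taken at 0 h. Of the 85 members 33 rose and 1 fell, where 6.45% of all tested genes rose and 6.65% fell. The median log2 fold change was 0.41 over the members and -0.00 over all genes. By complex, 9 of 36 genes of complex I rose, 3 of 7 assembly factors, 1 of 4 genes of complex II, 4 of 7 of complex III, 5 of 10 of complex IV and 11 of 21 of complex V, with medians of 0.36, 0.30, 0.44, 0.50, 0.45 and 0.45. With the replicate block 71 rose and 1 fell, against 21.6% and 19.7% of all genes.

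The largest passing rise was that of ATP5MC1 (ENSMODG00000012296), one of 3 genes for the c subunit that forms the rotating ring of ATP synthase. ATP5MC1 had 388, 336 and 381 CPM in Static 0 h and 807, 698 and 572 CPM in OSS 12 h (log2 fold change 0.94, SE 0.13, edgeR adjusted p = 0.012). The groups did not overlap. UQCRFS1 (ENSMODG00000012709), the Rieske iron-sulfur protein of complex III, went from 445, 386 and 384 CPM to 761, 635 and 537 CPM (log2 fold change 0.70, SE 0.13, edgeR adjusted p = 0.0216). Every OSS 12 h library was above every Static 0 h library. Of all 12840 genes, 2145 were separated upward in this way and 2544 downward.

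In complex IV the largest passing rise was that of COX7A2 (ENSMODG00000018503), the ubiquitous isoform of a small subunit, from 174, 214 and 239 CPM to 311, 353 and 331 CPM (log2 fold change 0.69, SE 0.13, edgeR adjusted p = 0.0199). In complex II, SDHA (ENSMODG00000000624), the flavoprotein that oxidises succinate, went from 372, 334 and 312 CPM to 535, 495 and 417 CPM (log2 fold change 0.53, SE 0.11, edgeR adjusted p = 0.0264). NDUFA8 (ENSMODG00000019682), an accessory subunit of complex I, went from 248, 207 and 204 CPM to 410.0, 333 and 273 CPM (log2 fold change 0.65, SE 0.15, edgeR adjusted p = 0.0336). Among assembly factors NDUFAF2 rose most (log2 fold change 0.65, SE 0.17, edgeR adjusted p = 0.0468), a factor that acts late in joining the NADH-oxidising module.

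Among core subunits of complex I, NDUFS1, which carries iron-sulfur clusters, and NDUFS3 did not pass at 12 h, with log2 fold changes of 0.22 (SE 0.12, edgeR adjusted p = 0.26) and 0.05 (SE 0.09, edgeR adjusted p = 0.742). With the block in edgeR NDUFS1 passed (adjusted p = 0.0357) and NDUFS3 did not. NDUFV1 (ENSMODG00000021336), the flavoprotein that takes electrons from NADH, had 122, 59.1 and 56.7 CPM in Static 0 h and 184, 109 and 129.5 CPM in OSS 12 h (log2 fold change 0.86, SE 0.32, edgeR adjusted p = 0.109 and 7.14e-05 with the replicate block). Its replicate 1 was the highest in both conditions, which the block takes up.

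ATP5S (ENSMODG00000028477), named coupling factor B and not a subunit of the enzyme itself, was the 1 member that fell. It had 46.3, 54.2 and 40.5 CPM in Static 0 h and 29.5, 34.1 and 27.9 CPM in OSS 12 h (log2 fold change -0.60, SE 0.13, edgeR adjusted p = 0.0264), and the groups did not overlap. The calls of this step changed with the libraries used. Without OSS 12 h replicate 2 no member passed, without OSS 12 h replicate 1 or Static 0 h replicate 2 only 1, without Static 0 h replicate 1 or 3 16 each, and without OSS 12 h replicate 3 29. The median log2 fold change of the members was lowest, 0.32, without OSS 12 h replicate 1 and highest, 0.50, without OSS 12 h replicate 3.

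From 12 to 48 h of OSS the members rose further. Of 85, 41 rose and 0 fell, where 14.3% of all genes rose and 12.8% fell, and the median was 0.33 against 0.01 over all genes. At an unadjusted p under 0.05, 55 members were higher and 0 lower, against 4990 of all 12840 genes in either direction. DESeq2 called 45 higher and 0 lower, against 16.2% and 15.9% of all genes. By complex the counts were 15 of 36 for complex I, 1 of 7 for the assembly factors, 2 of 4 for complex II, 4 of 7 for complex III, 7 of 10 for complex IV and 12 of 21 for complex V. With the block 64 rose and 0 fell (22.9% and 19.8% of all genes), and 27 rose without OSS 12 h replicate 3 or without OSS 48 h replicate 3.

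COX7B (ENSMODG00000003953), a small subunit of complex IV, was at 705, 679 and 563 CPM at 12 h and 1067, 1139 and 1124 CPM at 48 h (log2 fold change 0.77, SE 0.08, edgeR adjusted p = 0.000414). COX4I1 (ENSMODG00000004591), the ubiquitous isoform of the subunit at which ATP regulates the enzyme, went from 617, 596 and 502 CPM to 919, 880.0 and 888 CPM (log2 fold change 0.64, SE 0.08, edgeR adjusted p = 0.000641). For both genes all OSS 48 h libraries lay above all OSS 12 h libraries, which held for 2789 of all 12840 genes. UQCRC2, a core protein of complex III, went from 835, 729.7 and 634 CPM to 1150.5, 1103 and 1096 CPM (log2 fold change 0.60, SE 0.09, edgeR adjusted p = 0.00163), and SDHA from 535, 495 and 417 CPM to 693, 743 and 676 CPM (log2 fold change 0.54, SE 0.09, edgeR adjusted p = 0.00331). In complex I the main NDUFA9 row went from 479.8, 429 and 370.5 CPM to 680.2, 641 and 656 CPM (log2 fold change 0.63, SE 0.09, edgeR adjusted p = 0.00123), and its faint second row had the largest passing value, 0.79 (SE 0.21, edgeR adjusted p = 0.0212), lost without OSS 12 h replicate 3, OSS 48 h replicate 2 or OSS 48 h replicate 3. NDUFS1 and NDUFS3, which had not passed at 12 h, rose in this step, with log2 fold changes of 0.45 (SE 0.10, edgeR adjusted p = 0.012) for NDUFS1 and 0.41 (SE 0.06, edgeR adjusted p = 0.00132) for NDUFS3.

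Most subunits of the F1 head rose. ATP5F1B was at 3326, 3219 and 2842 CPM at 12 h, against 4309.9, 4532 and 4606 CPM at 48 h (log2 fold change 0.52, SE 0.08, edgeR adjusted p = 0.00172). ATP5F1A, ATP5F1D and ATP5F1E, the alpha, delta and epsilon subunits, rose by 0.45 (SE 0.08, edgeR adjusted p = 0.00393), 0.54 (SE 0.07, edgeR adjusted p = 0.000935) and 0.65 (SE 0.09, edgeR adjusted p = 0.00106) on the log2 scale. ATP5F1C, the gamma shaft, had 0.33 (SE 0.12, edgeR adjusted p = 0.0719) and passed only with the block in edgeR (adjusted p = 0.0071). The assembly factor that rose was NDUFAF3, at 0.23 (SE 0.07, edgeR adjusted p = 0.0352), a call lost without any 1 of the OSS 48 h libraries, OSS 12 h replicate 2 or 3, or OSS 96 h replicate 1. Its binding partner in early assembly, NDUFAF4, had 0.09 (SE 0.09, edgeR adjusted p = 0.544).

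Static cells also gained over their first 48 h. Of 85 members 50 rose and 1 fell, where 14.8% of all genes rose and 15.3% fell, with a median of 0.38 against 0.02. With the block 62 rose and 1 fell, against 19.6% and 19.5% of all genes. Complex V had 16 of 21 genes higher, complex IV 8 of 10, complex III 6 of 7, complex II 3 of 4, complex I 15 of 36 and the assembly factors 2 of 7. The medians were 0.48, 0.56, 0.42, 0.40, 0.33 and -0.04. The member that fell was NDUFAF4, from 35.0, 23.2 and 31.2 CPM to 22.6, 20.2 and 22.9 CPM (log2 fold change -0.46, SE 0.15, edgeR adjusted p = 0.047).

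ATP5MC1 went from 388, 336 and 381 CPM to 693, 676 and 766 CPM in static culture (log2 fold change 0.93, SE 0.09, edgeR adjusted p = 0.000187), and ATP5F1D (ENSMODG00000005314) from 24.6, 18.7 and 18.9 CPM to 42.6, 34.1 and 43.3 CPM (log2 fold change 0.94, SE 0.13, edgeR adjusted p = 0.00126). The libraries of the 2 times did not overlap for either gene. Of all 12840 genes, 2651 were separated upward in this way. SDHA went from 372, 334 and 312 CPM to 645, 592 and 572 CPM (log2 fold change 0.81, SE 0.09, edgeR adjusted p = 0.000406). UQCRQ (ENSMODG00000013849), a small subunit of complex III, went from 91.1, 70.4 and 68.9 CPM to 135, 129 and 144 CPM (log2 fold change 0.81, SE 0.12, edgeR adjusted p = 0.00144). In complex IV the largest passing rise was that of COX7B, from 476, 509 and 506 CPM to 789, 894 and 941 CPM (log2 fold change 0.80, SE 0.09, edgeR adjusted p = 0.00036).

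**Figure D3:**
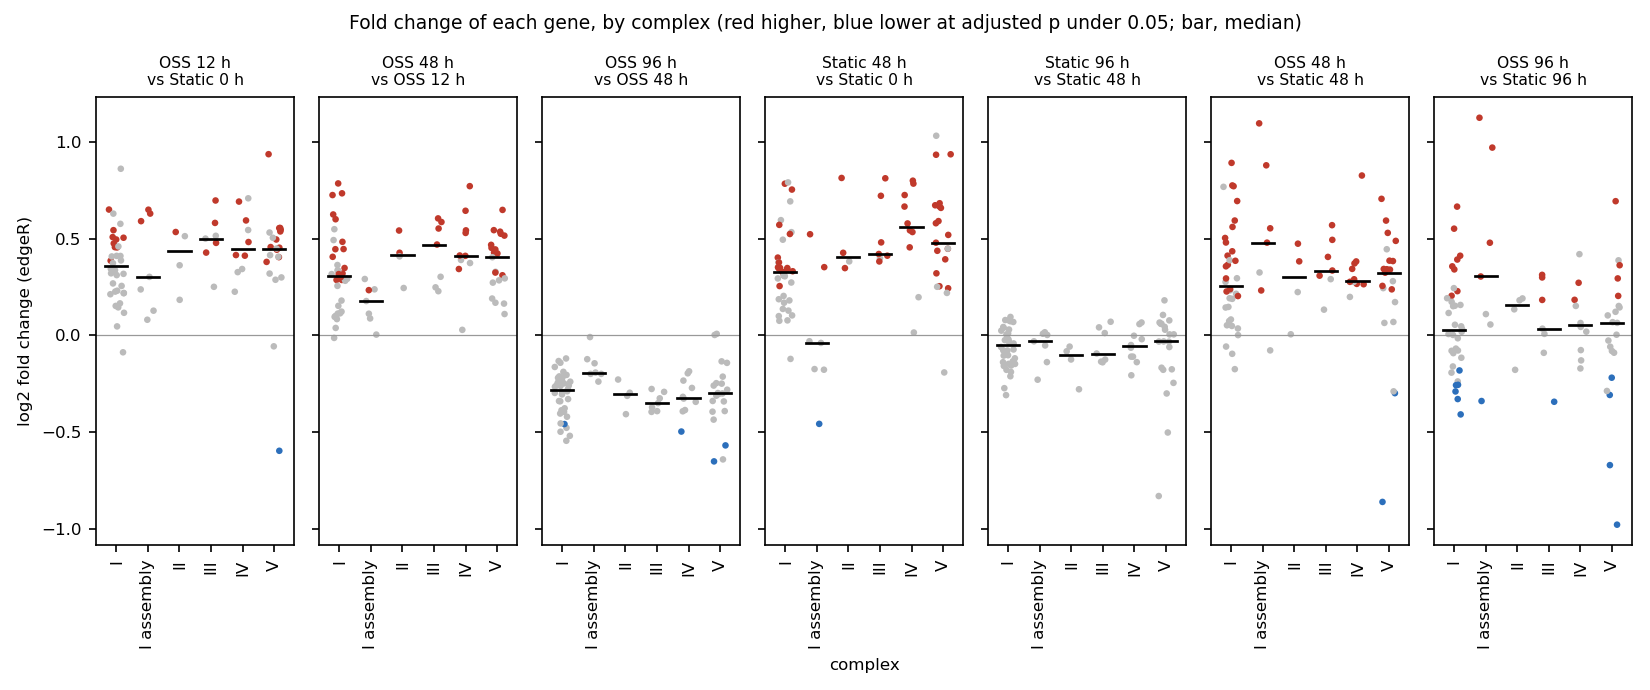
Log2 fold change of each member (points) in 7 comparisons, by complex, with the median of each complex as a bar. Red points rose and blue points fell at an edgeR adjusted p under 0.05, and grey points did not pass. Members lie mainly above 0 in the steps to 48 h and in OSS against Static at 48 h, below 0 from 48 to 96 h of OSS, and on both sides of 0 in OSS against Static at 96 h.

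The direct comparison at 48 h asked how OSS and static cells of the same age differed. Of 85 members 49 were higher under OSS and 2 lower, where 23.5% of all genes were higher and 24.5% lower, and the median was 0.30 against -0.03 over all genes. With the block 61 were higher and 2 lower, against 28.6% and 31.0% of all genes. Complex IV had 8 of 10 genes higher, complex III and the assembly factors 5 of 7 each, complex V 12 of 21, complex II 2 of 4 and complex I 17 of 36. The medians were 0.28, 0.34, 0.48, 0.32, 0.30 and 0.26 in that order. Genes of up to 500 bases, the class of 31 members, had a median of 0.07 over all 775 such genes and of 0.29 over the members, and the class of the longest genes had one of -0.14. With a length trend taken out the median of the members was 0.21.

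The largest difference was in NDUFAF4 (ENSMODG00000018131). It had 22.6, 20.2 and 22.9 CPM in Static 48 h and 49.3, 42.2 and 49.1 CPM in OSS 48 h (log2 fold change 1.10, SE 0.13, edgeR adjusted p = 1.06e-05), with no overlap. NDUFAF5 (ENSMODG00000005082), the enzyme that hydroxylates an arginine of NDUFS7 during assembly, had 11.9, 13.1 and 12.9 CPM and 22.0, 24.1 and 23.7 CPM (log2 fold change 0.88, SE 0.11, edgeR adjusted p = 2.06e-05). NDUFAF6 and NDUFAF7, the latter a methyltransferase, were higher by 0.55 (SE 0.12, edgeR adjusted p = 0.00167) and 0.48 (SE 0.09, edgeR adjusted p = 0.000451) on the log2 scale, and NDUFAF1 by 0.23 (SE 0.08, edgeR adjusted p = 0.0198). NDUFAF1 lost its call without Static 48 h replicate 1, OSS 48 h replicate 2 or OSS 48 h replicate 3. The core subunits NDUFS1, NDUFS3, NDUFS7 and NDUFS8 had log2 fold changes from -0.10 (NDUFS7) to 0.05 (NDUFS1), none of which passed, whereas NDUFV2, a core iron-sulfur subunit, was higher (log2 fold change 0.29, SE 0.09, edgeR adjusted p = 0.0174), a call lost without OSS 48 h replicate 1.

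Higher accessory subunits of complex I included NDUFA1 (ENSMODG00000010245), with 19.2, 23.4 and 24.1 CPM in Static 48 h and 44.9, 38.8 and 40.3 CPM in OSS 48 h (log2 fold change 0.89, SE 0.10, edgeR adjusted p = 6.57e-06). NDUFA1 is a small membrane subunit. The main NDUFA9 row, a subunit near the quinone site, had 368, 418 and 436 CPM and 680.2, 641 and 656 CPM (log2 fold change 0.69, SE 0.08, edgeR adjusted p = 1.21e-05), and NDUFA8 198, 207 and 207 CPM and 383, 323 and 339 CPM (log2 fold change 0.77, SE 0.12, edgeR adjusted p = 0.00013). For the 3 genes every OSS library exceeded every static library, which held for 3375 of all 12840 genes at 48 h. NDUFV1 had 186, 94.1 and 133 CPM and 285, 181 and 239 CPM, groups that overlapped across replicates (log2 fold change 0.77, SE 0.31, edgeR adjusted p = 0.0534 and 0.000107 with the replicate block).

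In complex III the largest difference was that of UQCRC1 (ENSMODG00000013475), a core protein, with 754, 872 and 929 CPM in Static 48 h and 1254, 1271 and 1266 CPM in OSS 48 h (log2 fold change 0.57, SE 0.09, edgeR adjusted p = 8.39e-05). In complex IV it was that of COX7A2, with 163, 262 and 304 CPM and 335, 442 and 515 CPM (log2 fold change 0.83, SE 0.22, edgeR adjusted p = 0.00576). COX7A2 varied more between replicates than UQCRC1, with replicate 1 the lowest in both conditions. In complex II the main SDHB row, the iron-sulfur subunit, had 346, 321 and 340.1 CPM and 513, 433 and 454 CPM (log2 fold change 0.47, SE 0.13, edgeR adjusted p = 0.00645).

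Complex V held both directions. ATP5MF-PTCD1 (ENSMODG00000001350), a row that carries the name of a human readthrough gene, had 50.3, 44.7 and 46.1 CPM in Static 48 h and 83.8, 73.8 and 72.6 CPM in OSS 48 h (log2 fold change 0.71, SE 0.11, edgeR adjusted p = 8.46e-05). Reads of ATP5MF and of PTCD1 could both be counted there, so the gene behind that value is uncertain. ATP5S had 60.9, 76.7 and 66.7 CPM and 38.8, 39.2 and 34.5 CPM (log2 fold change -0.86, SE 0.12, edgeR adjusted p = 4.45e-05), and ATP5MC2 (ENSMODG00000000563), the second c subunit gene, 61.5, 65.9 and 66.0 CPM and 53.5, 51.2 and 52.4 CPM (log2 fold change -0.30, SE 0.07, edgeR adjusted p = 0.0026). Both were lower in every OSS library than in every static library, as were 3413 of all 12840 genes. The c subunit genes went both ways at 48 h, with ATP5MC1 higher under OSS (log2 fold change 0.49, SE 0.10, edgeR adjusted p = 0.000925) and ATP5MC2 lower. For the third, ATP5MC3, the more abundant row had 88.7, 62.9 and 68.1 CPM in Static 48 h and 80.1, 83.8 and 96.2 CPM in OSS 48 h, with overlap.

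**Figure D4:**
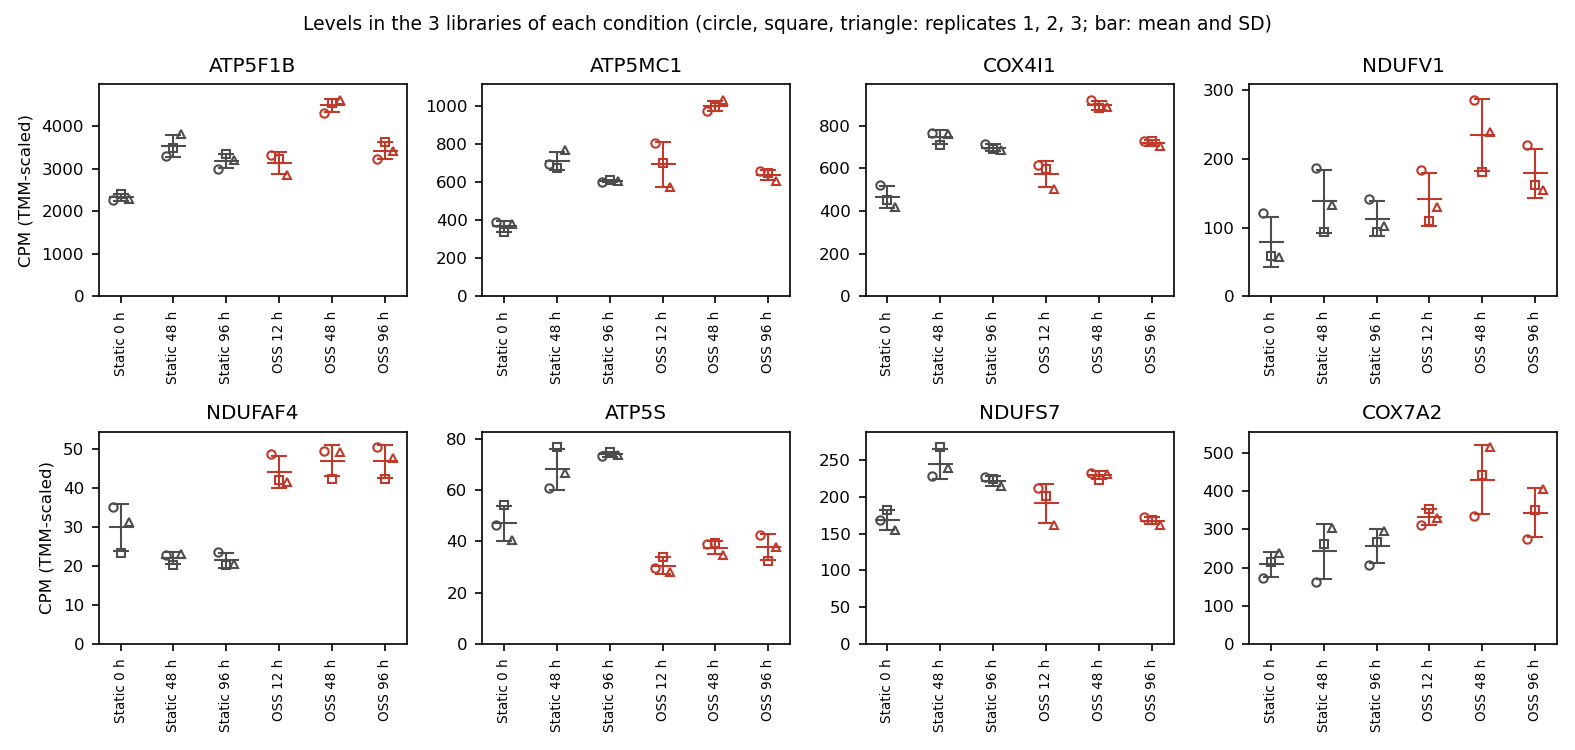
Level in TMM-scaled CPM (axes start at 0) of 8 members in the 18 libraries, with the mean and SD of each condition. ATP5F1B, ATP5MC1 and COX4I1 peak in OSS 48 h, NDUFAF4 is at 41.5 to 50.3 CPM in every OSS library against 20.2 to 23.5 CPM in the later static libraries, and ATP5S lies the other way.

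From 48 to 96 h of OSS the levels came down. The median log2 fold change of the members was -0.29 against -0.01 over all genes, and 83 of 85 had a negative value. In edgeR 4 members fell and 0 rose, where 0.467% of all genes fell and 0.678% rose. At an unadjusted p under 0.05, 57 were lower and 0 higher, against 2546 of all 12840 genes in either direction. DESeq2 called 27 lower and 0 higher, against 3.5% and 5.45% of all genes. With the block 56 fell and 0 rose, against 8.81% and 10.4%. For 56 members every OSS 96 h library was below every OSS 48 h library and for 0 above, which held for 14.0% and 14.1% of all genes. These calls changed with the libraries used, since none passed without any 1 of the 6 libraries of OSS 48 h and OSS 96 h, 1 without OSS 12 h replicate 2, and 14 or 17 without OSS 12 h replicate 1 or 3.

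The 4 that fell were ATP5MC1, from 974, 993 and 1028 CPM to 658, 646 and 606 CPM (log2 fold change -0.65, SE 0.11, edgeR adjusted p = 0.0349), ATP5F1D, COX6B1 and NDUFB7. ATP5F1D went from 39.6, 40.3 and 45.5 CPM to 29.1, 27.2 and 28.4 CPM (log2 fold change -0.57, SE 0.07, edgeR adjusted p = 0.0226). COX6B1 (ENSMODG00000013962), a complex IV subunit on the side that cytochrome c meets, went from 307, 337 and 349.9 CPM to 225, 242 and 238 CPM (log2 fold change -0.50, SE 0.09, edgeR adjusted p = 0.038). The libraries of 48 and 96 h did not overlap for any of the 4. NDUFB7 (ENSMODG00000002596), an accessory subunit of the membrane arm of complex I, went from 109.5, 111 and 116 CPM to 77.9, 87.3 and 80.3 CPM (log2 fold change -0.46, SE 0.07, edgeR adjusted p = 0.0315).

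The median changes were -0.28, -0.30, -0.35, -0.32 and -0.30 for complexes I to V and -0.19 for the assembly factors. With the block 23 of 36 genes of complex I fell, 4 of 4 of complex II, 6 of 7 of complex III, 8 of 10 of complex IV, 13 of 21 of complex V and 2 of 7 assembly factors. NDUFAF4 had a log2 fold change of -0.01 (SE 0.09, edgeR adjusted p = 0.973) and stayed at 50.3, 42.1 and 47.7 CPM, next to 49.3, 42.2 and 49.1 CPM at 48 h.

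No member passed in edgeR in the step from 48 to 96 h of static culture. The median was -0.05 against -0.00 over all genes, and 0 members passed in edgeR, where 0.0% of all genes rose and 0.0389% fell. With the block 0 members passed as well, against 0.164% and 0.639% of all genes. At an unadjusted p under 0.05, 5 members were lower and 0 higher. Of all 12840 genes 1749 reached it in either direction, a larger share. DESeq2 called 1 lower, an ATP5MC3 row, against 1.28% of all genes. The difference between the late change under OSS and in static culture had a median of -0.25 over the members, and 81 of 85 values were negative.

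That difference did not pass for any member or any other gene in edgeR (0.0% of tested genes). At an unadjusted p under 0.05, 28 members were lower and 0 higher, against 1580 of all 12840 genes in either direction. DESeq2 called 4 lower (NDUFA1, NDUFB7, COX6B1 and ATP5MC2), against 1.27% of all genes. The block in edgeR called NDUFB7 alone, lower, against 0.436% (log2 difference -0.49, adjusted p = 0.0218). Without Static 48 h replicate 3 edgeR called 1 member. All 775 genes of up to 500 bases together had a median difference of -0.19, against -0.29 over the 31 members of that length, and with a length trend taken out the median of all members was -0.13.

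At 96 h the members that differed between OSS and static cells lay on both sides. Of 85 members 21 were higher under OSS and 12 lower, where 25.5% of all genes were higher and 26.2% lower, and the median was 0.06 against -0.00. Both shares of the members were near or below those of all genes. With the block 33 were higher and 17 lower, against 31.8% and 32.9% of all genes. Without scaling factors 27 were higher and 8 lower, and the shares of all genes in that fit are not given here. The counts higher and lower were 8 and 6 of 36 in complex I, 4 and 1 of 7 in the assembly factors, 0 and 0 of 4 in complex II, 3 and 1 of 7 in complex III, 2 and 0 of 10 in complex IV and 4 and 4 of 21 in complex V. In complex II 3 rows were higher and 1 lower with the block.

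**Figure D5:**
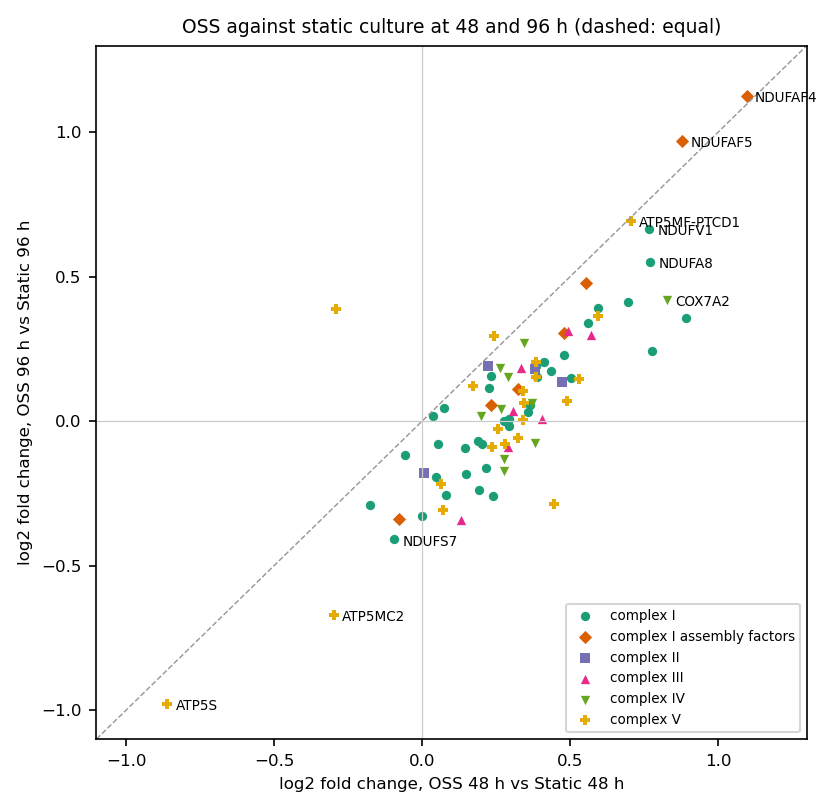
Log2 fold change of each member for OSS against Static at 96 h (vertical axis) and at 48 h (horizontal axis), by complex. The 2 comparisons share no library in their means. Most members lie below the dashed line of equal values, while NDUFAF4, NDUFAF5 and ATP5MF-PTCD1 stay at the upper right and ATP5S and ATP5MC2 at the lower left.

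Assembly factors of complex I were again among the higher members. NDUFAF4 had 23.5, 20.2 and 20.3 CPM in Static 96 h and 50.3, 42.1 and 47.7 CPM in OSS 96 h (log2 fold change 1.13, SE 0.10, edgeR adjusted p = 0.000139), and NDUFAF5 10.7, 10.9 and 11.1 CPM and 18.3, 23.9 and 22.1 CPM (log2 fold change 0.97, SE 0.11, edgeR adjusted p = 0.000399). For both, every OSS library was above every static library at 48 and at 96 h. That held for 3375 of all 12840 genes at 48 h and for 3865 at 96 h. NDUFAF6 and NDUFAF7 were higher by 0.48 (SE 0.11, edgeR adjusted p = 0.00888) and 0.30 (SE 0.06, edgeR adjusted p = 0.0053) on the log2 scale. NDUFAF3, which binds NDUFAF4, was lower, with 56.9, 55.0 and 54.3 CPM in Static 96 h and 44.8, 41.9 and 44.9 CPM in OSS 96 h (log2 fold change -0.34, SE 0.06, edgeR adjusted p = 0.00216).

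Complex I held 8 genes higher and 6 lower of 36, both below the shares of all genes at 96 h. NDUFS7 (ENSMODG00000005182), the iron-sulfur subunit next to the quinone site, had 227, 224 and 214 CPM in Static 96 h and 172, 168 and 162 CPM in OSS 96 h (log2 fold change -0.41, SE 0.05, edgeR adjusted p = 0.000882). All OSS libraries were below all static libraries, as they were for the other 5 subunits that were lower, namely NDUFS8, NDUFV3, NDUFA5, NDUFB7 and the main NDUFS6 row, with log2 fold changes from -0.33 (NDUFS8) to -0.18 (NDUFS6). Libraries separated in this way for 30.5% of all genes. The call of NDUFS8 was lost without any 1 of Static 96 h replicates 1 to 3 or OSS 96 h replicates 2 and 3, and that of NDUFS6 without Static 96 h replicate 2 or 3 or OSS 96 h replicate 1 or 2. NDUFV1 was higher, with 141, 93.8 and 103 CPM and 219.7, 162 and 155 CPM (log2 fold change 0.67, SE 0.19, edgeR adjusted p = 0.0215 and 2.99e-05 with the replicate block), and its call was lost without Static 96 h replicate 2 or 3. NDUFA8 had 204, 186 and 174 CPM and 293, 269.5 and 265 CPM (log2 fold change 0.55, SE 0.08, edgeR adjusted p = 0.00106), and the main NDUFA9 row 382, 384 and 371 CPM and 494, 512 and 508 CPM (log2 fold change 0.41, SE 0.05, edgeR adjusted p = 0.000632).

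NDUFB5, NDUFA1, NDUFB3, NDUFA2 and NDUFA10, all accessory subunits, were the other passing rises of complex I, from 0.20 (NDUFA10) to 0.39 (NDUFB5) on the log2 scale. The core subunits NDUFS1, NDUFS3 and NDUFV2 had log2 fold changes of -0.08, 0.02 and -0.01, and none passed with or without the block. Of 19 catalytic or core genes over all complexes, CYC1 (cytochrome c1) included, 4 were higher and 3 lower at 96 h, both below the 25.5% and 26.2% of all genes, against 9 and 0 at 48 h, where the shares of all genes were 23.5% and 24.5%.

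In complex III, UQCRFS1, UQCRC1 and UQCRC2 were higher by 0.31, 0.30 and 0.18 on the log2 scale. UQCRQ was lower, with 159, 135 and 139 CPM in Static 96 h and 127, 107 and 109 CPM in OSS 96 h (log2 fold change -0.34, SE 0.09, edgeR adjusted p = 0.0188), a call lost without OSS 96 h replicate 2 or 3. In complex IV, COX7B had 759, 817 and 830.0 CPM and 962, 966 and 985 CPM (log2 fold change 0.27, SE 0.06, edgeR adjusted p = 0.0071), and COX5A was higher by 0.18. COX7A2 had 207, 267 and 295 CPM and 276, 351 and 405 CPM, and the groups overlapped (log2 fold change 0.42, SE 0.17, edgeR adjusted p = 0.0759 and 0.000114 with the replicate block).

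Complex V held 4 members higher and 4 lower at 96 h (25.5% and 26.2% of all genes), and the largest passing falls. ATP5MF-PTCD1 had the highest log2 fold change of the complex, 0.69. Its levels were 51.9, 42.9 and 48.2 CPM in Static 96 h and 84.5, 72.9 and 74.5 CPM in OSS 96 h. ATP5S had 73.2, 75.0 and 73.6 CPM in Static 96 h and 42.5, 32.5 and 37.9 CPM in OSS 96 h (log2 fold change -0.98, SE 0.10, edgeR adjusted p = 0.000261). ATP5MC2 had 70.8, 67.3 and 65.3 CPM and 45.1, 41.8 and 41.1 CPM (log2 fold change -0.67, SE 0.06, edgeR adjusted p = 0.000187), while ATP5MC1 had 601, 612 and 605 CPM and 658, 646 and 606 CPM (log2 fold change 0.07, SE 0.06, edgeR adjusted p = 0.352). All OSS libraries were below all static ones for ATP5S and ATP5MC2. The more abundant ATP5MC3 row had 48.8, 55.2 and 52.7 CPM in Static 96 h and 56.7, 66.1 and 69.8 CPM in OSS 96 h. Every OSS library was above every static one for that row, which held for 3865 of all 12840 genes. Its faint second row overlapped. ATP5IF1 (ENSMODG00000010826), the inhibitor that stops the enzyme from splitting ATP, had 108, 97.8 and 101 CPM and 87.7, 84.2 and 76.7 CPM (log2 fold change -0.31, SE 0.07, edgeR adjusted p = 0.00871), and ATP5F1D was lower too (log2 fold change -0.22, SE 0.06, edgeR adjusted p = 0.0206), a call lost without any 1 static library or OSS 96 h replicate 2. The rest of the F1 head had log2 fold changes of 0.15, 0.10, 0.12 and 0.00 for ATP5F1A, ATP5F1B, ATP5F1C and ATP5F1E, none of which passed, and ATP5F1A did with the block in edgeR (adjusted p = 0.0262).

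Of the 49 members higher under OSS at 48 h, 19 were also higher at 96 h, 29 did not pass and 1, NDUFB7, was lower. Over all tested genes, 74.6% of the 3019 higher at 48 h were also higher at 96 h. The 2 members lower at 48 h, ATP5S and ATP5MC2, were lower at 96 h as well, as were 77.3% of the 3142 genes lower at 48 h. The change of a member's difference between 48 and 96 h is the comparison of late changes given above, which passed for none in edgeR.

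Against Static 0 h, OSS 96 h had 55 of 85 members higher and 2 lower (19.4% and 20.2% of all genes), and Static 96 h had 47 higher and 2 lower (20.4% and 19.4%). With the block the counts were 65 and 2 at OSS 96 h (24.9% and 25.8% of all genes) and 65 and 5 at Static 96 h (26.0% and 24.3%). Both comparisons share the Static 0 h libraries. The medians were 0.45 and 0.35, against -0.01 and -0.00 over all genes. By complex the medians at OSS 96 h and Static 96 h were 0.34 and 0.29 for complex I, 0.47 and 0.36 for complex II, 0.57 and 0.37 for complex III, 0.62 and 0.56 for complex IV, 0.49 and 0.45 for complex V and 0.31 and -0.03 for the assembly factors. Without scaling factors the median of all genes for Static 96 h moved to -0.15, and 32 members were higher and 5 lower. The shares of all genes called in that fit are not given here.

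The largest passing rise at OSS 96 h was that of NDUFV1 (log2 fold change 1.18, SE 0.31, edgeR adjusted p = 0.00766 and 2.58e-06 with the replicate block), whose libraries of the 2 conditions were 219.7, 162 and 155 CPM and 122, 59.1 and 56.7 CPM. COX7B came next in size, with 476, 509 and 506 CPM at Static 0 h and 962, 966 and 985 CPM at OSS 96 h (log2 fold change 0.97, SE 0.09, edgeR adjusted p = 8.68e-07). In Static 96 h the largest was UQCRQ, from 91.1, 70.4 and 68.9 CPM to 159, 135 and 139 CPM (log2 fold change 0.91, SE 0.13, edgeR adjusted p = 9.92e-05). NDUFAF4 moved in opposite directions from Static 0 h, higher at OSS 96 h (log2 fold change 0.65, SE 0.13, edgeR adjusted p = 0.00103) and lower at Static 96 h (log2 fold change -0.48, SE 0.13, edgeR adjusted p = 0.00835, lost without Static 0 h replicate 1, with overlapping libraries), and NDUFAF5 likewise, with 0.60 (SE 0.11, edgeR adjusted p = 0.000663) and -0.38 (SE 0.11, edgeR adjusted p = 0.0155). ATP5S and ATP5MC2 moved the other way, with -0.32 (SE 0.12, edgeR adjusted p = 0.0436) and -0.19 (SE 0.07, edgeR adjusted p = 0.0445) at OSS 96 h, calls with overlapping libraries that were lost on leaving out replicate 1 or 2 of Static 0 h, replicate 2 or 3 of OSS 96 h or any 1 of 6 other libraries, and 0.65 (SE 0.12, edgeR adjusted p = 0.000566) and 0.48 (SE 0.07, edgeR adjusted p = 8.44e-05) at Static 96 h.

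Part of the variation followed the replicate number and not the condition. Replicate 1 was the highest library in all 6 conditions for 16 members and the lowest in all 6 for 2, replicate 2 the highest in all 6 for 3, and replicate 3 for 0. Averaged over conditions, the range between replicate numbers had a median of 0.15 on the log2(CPM + 1) scale over the members, against 0.75 between conditions. It was 0.74 for NDUFV1, 0.65 for NDUFB10, 0.64 for COX6A1 and 0.52 for COX7A2. NDUFC1 (ENSMODG00000000098) was the 1 member whose range between replicate numbers (0.58) exceeded that between conditions (0.38). The 2 ranges are not measured alike. The first spans 3 means of 6 libraries each and the second 6 means of 3 libraries each, which by itself tends to widen the second.

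NDUFC1, a small accessory subunit of complex I, had 74.1, 50.1 and 48.4 CPM in Static 0 h and 97.2, 61.1 and 66.9 CPM in OSS 48 h. COX6A1 (ENSMODG00000003168), the ubiquitous isoform of a complex IV subunit, had 219.8, 141 and 156 CPM in Static 48 h and 267, 168 and 190.3 CPM in OSS 48 h (log2 fold change 0.28, SE 0.28, edgeR adjusted p = 0.436 and 0.00951 with the replicate block). In each of these sets replicate 1 stood above the other 2. Replicate 1 libraries also had the fewest counts, and the part of depth in these values was not tested.

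Genes around the chain were read from lists of known members. Of all tested genes 23.5% were higher and 24.5% lower under OSS at 48 h, and 25.5% and 26.2% at 96 h. Of 33 tested assembly factors of other symbols, 13 were higher and 2 lower under OSS at 48 h, and 6 and 6 at 96 h, the latter below the shares of all genes. TIMMDC1 and FOXRED1, both factors of complex I, were higher by 0.85 and 0.73 at 48 h and by 0.87 and 0.77 at 96 h on the log2 scale, and LRPPRC, which stabilises mitochondrial messenger RNA, by 0.80 and 0.64. COA4, a complex IV factor, was lower by values of -0.65 and -0.73. Of 20 tested electron carriers and partners (ATP5IF1, itself a member, included), 12 were higher and 2 lower at 48 h and 9 and 4 at 96 h. CYCS, cytochrome c, was higher by 0.83 and 0.64 on the log2 scale, COQ4, of ubiquinone synthesis, by 0.67 and 0.65, and ETFA, a subunit of the electron transfer flavoprotein, by 0.66 and 0.65.

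Of 17 tested genes of mitochondrial import and mass, 10 rose and 0 fell at OSS 12 h (6.45% and 6.65% of all genes), led by HSPD1 (0.93) and HSPA9 (0.85), chaperones of the matrix. At 48 h of OSS 8 were higher and 1 lower than in static cells (23.5% and 24.5% of all genes), and at 96 h 8 and 3 (25.5% and 26.2%). Of 16 tested regulators of mitochondrial biogenesis 0 rose and 1 fell at OSS 12 h. Against static cells 3 were higher and 4 lower under OSS at 48 h, where 23.5% of all genes were higher and 24.5% lower. At 96 h 6 were higher and 3 lower, where 25.5% of all genes were higher and 26.2% lower. PPRC1, a coactivator of the PGC-1 family, was higher by 1.22 at 96 h, POLRMT, the mitochondrial RNA polymerase, by 1.13 and TFAM, which packs and helps transcribe mitochondrial DNA, by 0.65. The 3 genes lower at 96 h were named after their values were seen. They were POLG and POLG2, subunits of the mitochondrial DNA polymerase, at -0.47 and -0.43, and TFB1M, a methyltransferase of mitochondrial ribosomal RNA, at -0.33.

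Of 10 tested genes of a list on oxygen and respiration, 7 fell and 0 rose at OSS 12 h (6.65% and 6.45% of all genes). Against static cells 7 were lower and 0 higher under OSS at 48 h (24.5% and 23.5%). At 96 h 10 were lower and 0 higher (26.2% and 25.5%). The medians were -1.57 and -1.78 in the last 2. CA9, a carbonic anhydrase induced in hypoxia, had a log2 fold change of -7.75 at 48 h, SLC2A1, the glucose transporter GLUT1, -2.60, BNIP3L, a receptor for removal of mitochondria, -2.33, and VEGFA, a growth factor for vessels, -2.32. Their part in the levels of the members was not tested.

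Of 15 rows found for markers of other cell types, 7 stayed under 1 CPM in all libraries, and the endothelial genes CDH5 and TIE1 were at most 0.144 and 0.115 CPM. The summed level of the 15 was 117 to 149 CPM in Static 0 h, 85.7 to 97.2 CPM in Static 48 h, 81.5 to 88.6 CPM in Static 96 h, 84.5 to 106 CPM in OSS 12 h, 58.4 to 71.0 CPM in OSS 48 h and 74.5 to 95.7 CPM in OSS 96 h. It was lowest where the members were highest. PDGFRB, a receptor of mesenchymal cells, gave most of that sum in Static 0 h and had log2 fold changes of -1.72 at 48 h and -1.48 at 96 h for OSS against Static. The summed proximal tubule markers were 4388 to 5319 CPM in Static 0 h, 6170 to 7839 CPM in Static 48 h, 5911 to 6588 CPM in Static 96 h, 4850 to 5920 CPM in OSS 12 h, 8147 to 9121 CPM in OSS 48 h and 7985 to 9731 CPM in OSS 96 h. These sums rest largely on LRP2 and CUBN, whose ranges are given above. Counted gene by gene, 3 of the 9 tested markers were higher and 1 lower under OSS at 48 h (23.5% and 24.5% of all genes). At 96 h 4 were higher and 0 lower (25.5% and 26.2%). Medians of the log2 fold change were 0.07 and 0.31 at these 2 times. In the step to OSS 12 h, 0 rose and 1 fell (6.45% and 6.65%). SLC12A1, the cotransporter of the thick ascending limb, was higher under OSS, with log2 fold changes of 1.97 at 48 h and 2.84 at 96 h. The part of these markers in the results was not tested.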

How the data were processed

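Total RNA of 18 OK cell libraries (ribosomal RNA depleted, stranded preparation, paired reads) was sequenced by the authors. Per the paper's methods and the labels, cutadapt trimming by the authors was followed by TopHat2 alignment to the Monodelphis domestica assembly MonDom5. Base mismatches were allowed in that alignment. The authors removed mitochondrial and ribosomal reads and deposited raw counts per gene from featureCounts (Subread). The paper names the cells as opossum kidney cells with a cell line identifier, and states no species for them. How well reads of each gene matched the assembly was not tested, so comparisons of level between genes are uncertain. Tool versions, strand setting and annotation release are not given in the sources used here. Unless counting used strand, reads of overlapping antisense genes cannot be told apart. Sheets that copy some of these counts, 1 with the authors' averages and tests of a few genes, were not used.

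Gene members and lists were chosen with earlier results of these data known. Any member could be named, but the values of 1 are not reported here, though it stays in the counts, sums and medians. Full statistics went mainly to core and isoform genes and to the largest passing rise and fall in each complex, and genes outside the family came from the lists, at most 4 in a list and comparison. Genes with CPM above 1 in at least 6 of 18 libraries were kept, 12840 of 23899, holding 99.9% of counts. Totals were 40154553 to 79745362 counts. Comparisons used the quasi-likelihood F-test of edgeR 4.0.16 (R 4.3.3) with TMM factors, Benjamini-Hochberg adjustment over all 12840 genes and a threshold of 0.05. The fits of OSS 12 h against Static 0 h and of OSS against Static at 96 h held only the 6 libraries compared. Each step within OSS or static culture was fitted on that arm, and the rest on all 18 libraries. SE is the absolute log2 fold change over the square root of F. Scripts were tested on simulated data.

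Replicates with the same number may share an experimental round. All 45 same-number pairs of libraries in different conditions had correlated deviations from their condition means (r from 0.244 to 0.786, median 0.50). Over 90 pairs with different numbers the median was -0.38. That value is no separate support, since the deviations of a gene within a condition sum to 0. Most pairs of a replicate 2 with a replicate 3 had positive r. The link between same-numbered libraries comes from the data, since the labels give only the number, and it was taken as pairing. No 2 replicates agreed within sampling noise (chi-square per gene at least 25.1). Since each library pools experiments, p-values measure the spread between these libraries. Alternatives were RLE or no scaling factors, DESeq2 1.42.0, no filter, each library left out, the replicate block, a trend with gene length, both together, and other libraries in the fit.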

Additional observations from a re-analysis of the deposited data

Results flagged for a closer look

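Of 14 rows with the name of a mitochondrially encoded gene, 2 held counts although mitochondrial reads had been removed before counting. MT-ATP6 (ENSMODG00000028188) was at most 0.147 CPM in any library. Both rows with counts were named from human symbols, and the rows named from opossum symbols held 0 counts. MT-ND1 (ENSMODG00000027819, named after a subunit of complex I in the membrane arm) lay outside the members. It had a deposited length of 2905 bases, and which gene the row counts was not settled. In static culture its mean was 21.8 ± 3.63 CPM at the start, 42.7 ± 0.310 CPM after 48 h and 34.6 ± 5.69 CPM after 96 h (SD, n = 3 each). Under OSS its mean was 30.1 ± 2.76 CPM after 12 h, 57.7 ± 5.75 CPM after 48 h and 62.0 ± 9.91 CPM after 96 h. For OSS against Static the log2 fold change was 0.44 at 48 h (SE 0.14, edgeR adjusted p = 0.0208) and 0.84 at 96 h (SE 0.16, edgeR adjusted p = 0.00365). The level was drawn to attention because it was above that of the static cells in data outside the family's comparisons. Whether these reads come from the mitochondrial genome or from a nuclear copy was not tested.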

How the results depend on the processing

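The limits are 3 libraries a condition, the shared replicate number, and levels that are shares of a library. Over 16915 recomputed member results, 0 changed direction after a call. The replicate block gave 186 member results a call and took it from 0. It raised the members called to 72 for OSS 12 h against Static 0 h, 64 for OSS 48 h against OSS 12 h, 56 for OSS 96 h against OSS 48 h, 50.0 for OSS against Static at 96 h and 1 for the difference of late changes, and changed no other count by more than 1.5 times. With a length trend beside the block the counts of the first 3 were 65, 65 and 43. DESeq2 called 27 members for OSS 96 h against OSS 48 h, 1 for Static 96 h against Static 48 h and 4 for the difference of late changes. For OSS 96 h against OSS 48 h, no scaling factors gave 8 and all 18 libraries in the fit 15. Leaving out 1 library at a time gave 0 to 29 members for OSS 12 h against Static 0 h, 27 to 54 for OSS 48 h against OSS 12 h, 0 to 17 for OSS 96 h against OSS 48 h and 0 to 1 for the difference of late changes. The cause of these shifts was not tested. RLE factors gave 2 member results a call and took it from 7, and no filter gave 2 and took 24. Shares of all genes in the fits with a library left out, other scaling, other libraries or no filter are not given here.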
